A study of Mus musculus with 2 samples.

Results

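Transcripts of 9 genes of the angiotensin, endothelin and natriuretic peptide systems were followed through the cell classes of the mouse aorta. The genes were Ace, Agt, Agtr1a, Edn1, Ednra, Ednrb, Npr1, Npr3 and Nppc, taken by name from the 19357 genes of the deposited count matrices, and all 9 were present in both libraries. The question was which class carries the transcripts of each ligand, enzyme and receptor, and whether their levels differ between diabetic and control mice. The diabetic group was male C57BL/6 mice of genotype Apoe -/- that received streptozotocin, a toxin of the insulin-producing beta cell, in 5 daily injections of 55 mg/kg that began at 6 weeks of age. The control group was male C57BL/6 mice of genotype Apoe -/- that received citrate vehicle on the same schedule. Both groups were followed for 10 weeks and are labelled 17 weeks of age. All animals therefore share the Apoe deficiency, which predisposes to atherosclerosis through high plasma lipids. Aortae of 4 mice were pooled into 1 single-cell library per group after enzymatic digestion, a warm incubation in medium and a sort for viable cells, so no difference below has a replicate, and no test between the groups was possible.

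These 3 systems set vascular tone and volume. Angiotensinogen (Agt) is cut by renin to angiotensin I, which angiotensin-converting enzyme (Ace) turns into angiotensin II, and the type 1 receptor (Agtr1a) on smooth muscle answers with contraction. Endothelin-1 (Edn1) is secreted mainly by endothelium. The A receptor (Ednra) on smooth muscle mediates constriction, whereas the B receptor (Ednrb) on endothelium mediates dilation and takes up endothelin. C-type natriuretic peptide (Nppc) is an endothelial and local peptide that acts on Npr2, Npr1 is the guanylyl cyclase receptor of the cardiac natriuretic peptides, and Npr3 clears these peptides from the circulation.

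The diabetic library held 2524 cells to which the authors gave a class, with 11833577 unique molecular identifiers (UMIs) and a median of 4477.5 UMIs per cell. The control library held 3060 such cells, with 12390769 UMIs and a median of 3760. A total of 7 of 13 classes had at least 50 cells in each library and were compared: endothelial cells (ECs), 2 smooth muscle classes (VSMCs-1 and VSMCs-2), 3 fibroblast classes (Fib-1, Fib-2 and Fib-3) and macrophages (Mac). The class make-up differed, since VSMCs-2 were 33.9% of annotated cells in the diabetic library and 16.2% in the control library, and Mac were 9.07% in the diabetic library and 16.7% in the control library. Fixed endothelial markers summed to 6625 UMIs per 1000000 UMIs of the class (CPM) in diabetic ECs and 6949 CPM in control ECs, against 35.3 to 120 CPM in the other classes. Haemoglobin transcripts took 1.14% of annotated UMIs in the diabetic library and 0.217% in the control library. The libraries shared 15 barcodes, 8 of them annotated. Residual Apoe UMIs numbered 63 in diabetic and 48 in control cells, and the 3' chemistry does not show whether they come from the disrupted allele.

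Start regions of the members are shown first. The levels below are 3' counts per gene, and their relation to these regions was not tested. RefSeq windows of 250 bases before to 50 bases after the annotated start on GRCm38.p6 were used for 8 of the 9 genes, all but Agtr1a. The Edn1 window lies at chromosome 13 on the plus strand. Just downstream of the annotated start, a GATA motif (TTATCT) sat within chr13:42301477-42301496 and an AP-1-type motif (TGACTAA) within chr13:42301501-42301525. Both letter strings are those known as functional GATA and AP-1 elements of the human gene's promoter. Capitals mark the motif.
Edn1 GATA stretch: ccgggtcTTATCTctggctg
Edn1 AP-1 stretch: ttgcctgtgggTGACTAAtcacaca

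Counted on both strands, TTATCT was in 11.2% and TGACTAA in 2.35% of 32851 RefSeq windows of the same length. Neither the palindromic AP-1 motif TGANTCA (7.81% of windows) nor the cyclic AMP element TGACGTCA (1.79%) was found in a member window. A TATA motif (TATAAA, 13.6% of windows) was found for Ace, Agt and Nppc, and a GC box (GGGCGG, 35.7% of windows) for Ace, Nppc and Npr1. The stretches that hold them are upstream of the start, at chr11:105967798-105967947 (plus strand) for Ace, chr8:124569727-124569756 (minus) for Agt, chr1:86670594-86670643 (minus) for Nppc and chr3:90465867-90465936 (minus) for Npr1. They are printed 5′ to 3′ on the gene's strand with both motifs in capitals, in either orientation, and the longer runs of capitals in Ace and Npr1 hold GC boxes that overlap or adjoin.
Ace: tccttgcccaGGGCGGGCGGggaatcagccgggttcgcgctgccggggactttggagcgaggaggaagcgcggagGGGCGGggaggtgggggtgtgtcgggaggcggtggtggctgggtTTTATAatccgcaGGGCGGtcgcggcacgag
Agt: atccatctccaccccttgagTATAAAtaag
Nppc: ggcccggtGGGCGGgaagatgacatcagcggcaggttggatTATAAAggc
Npr1: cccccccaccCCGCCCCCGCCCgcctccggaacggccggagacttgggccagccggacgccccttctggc

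Ace had 2 windows whose starts lie 7241 bases apart. The gene is known to use an upstream start in somatic cells and an internal start in male germ cells, and the stretch shown belongs to the upstream window. The 3' counts do not separate the 2 transcripts. The windows of Ednra, Ednrb and Npr3 held none of the 6 motifs searched, which says only that these letters are not in those windows.

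The classes fell into distinct patterns by role. The endothelial class carried most of the Edn1 ligand and had the highest Ace level. Ednrb was mostly a macrophage transcript. Ednra had its highest levels in VSMCs-1, Fib-1 and Fib-2. Npr1 had its highest levels in endothelium and both smooth muscle classes, followed by Fib-3. Agt, Agtr1a and Npr3 were rare everywhere, and Nppc was rare outside control ECs. Control ECs had Nppc at 26.5 CPM, on 29 UMIs in 9 cells, 6.43-fold (3.34 to 12.9) over the next class. The class with the highest level was the same in both libraries for 7 of the 9 genes, all but Ednra and Nppc. It exceeded the next class beyond counting error in both libraries only for Ace, Edn1 and Ednrb. For Agt, Agtr1a, Npr1 and Npr3 the first rank lay within counting error in both libraries.

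**Figure D1:**
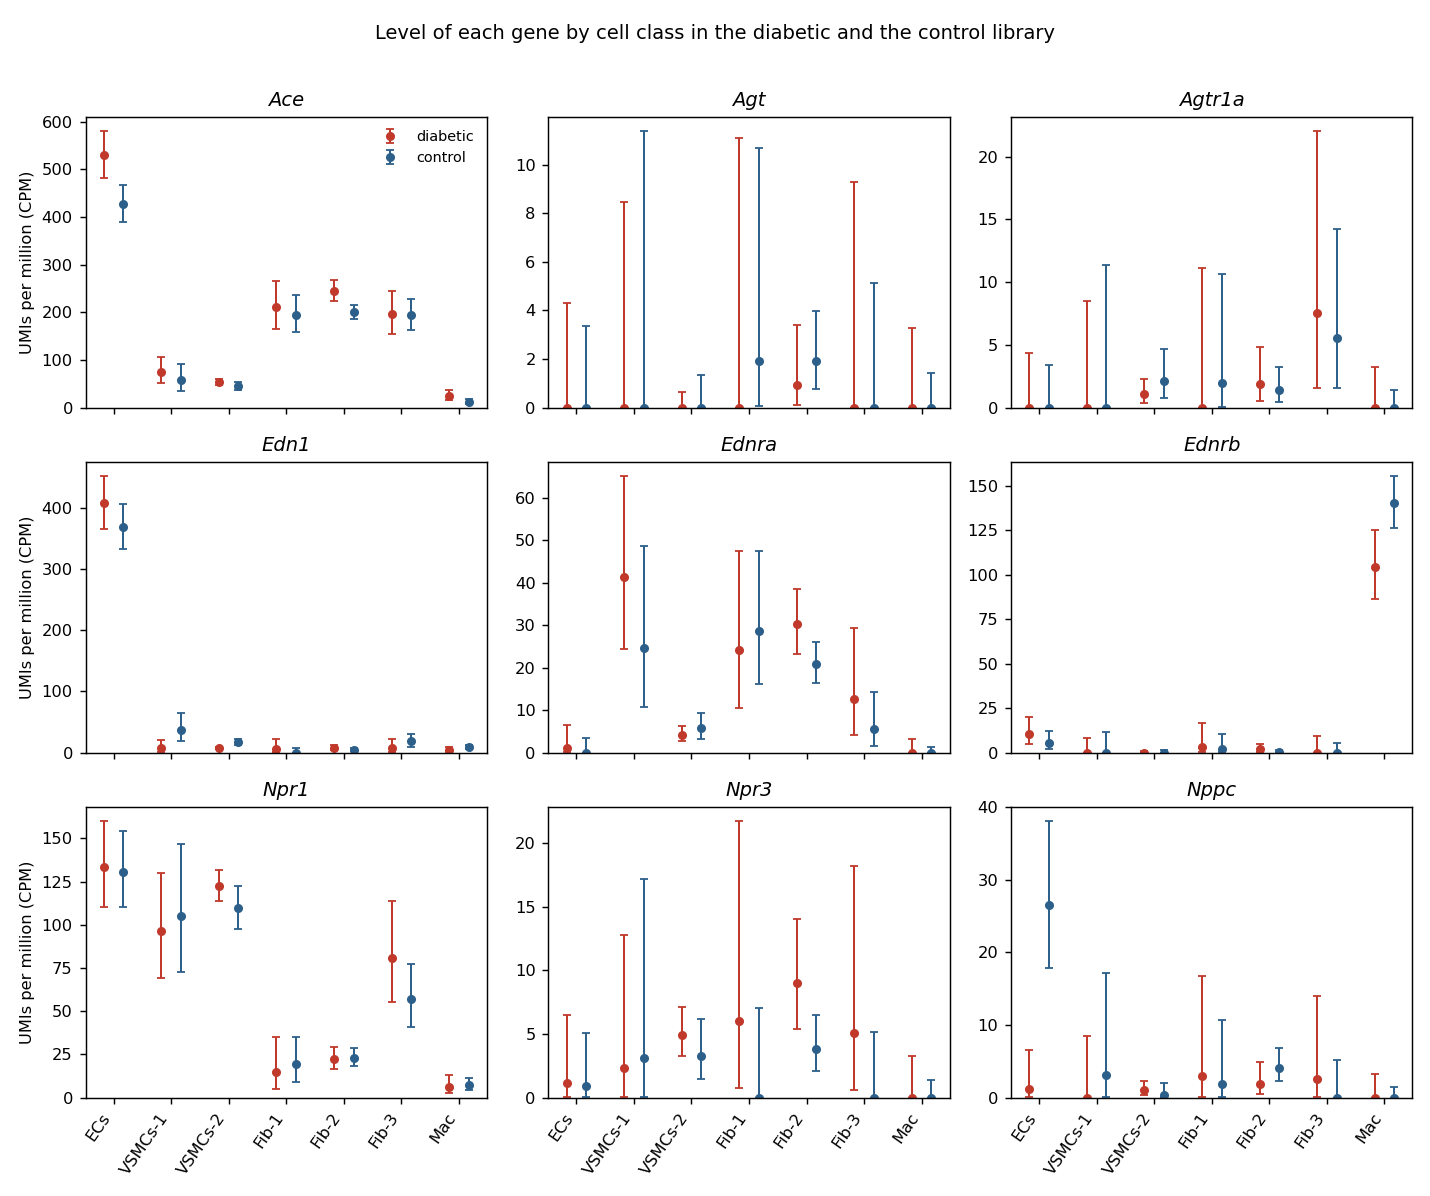
Level of each of the 9 genes (vertical axis, CPM of the class, linear and scaled per panel) in the 7 classes, with diabetic cells in red left of control cells in blue. Points are sums over all cells of a class in 1 library and bars are exact 95% Poisson intervals, which cover counting error only. Edn1 is high in ECs alone, at 408 CPM in diabetic and 369 CPM in control cells, and Ednrb in Mac, at 104 CPM in diabetic and 141 CPM in control cells.

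Levels are the CPM of a gene's summed UMIs in a class, with exact 95% Poisson intervals. The ratio of diabetic over control CPM has an exact conditional binomial 95% interval. A gene was compared in a class where it had at least 10 UMIs over both libraries, and called higher or lower where the ratio was at least 1.5-fold and its interval excluded 1. All these intervals cover counting error only and leave out the spread between cells and between mice. Under this rule 31 of the 63 gene and class pairs could be compared, 2 were called higher in diabetic cells and 3 lower, and 26 were not called. Fewer cells of a subtype and less RNA per cell cannot be told apart in such class sums. UMIs of the 3' assay are compared between classes and libraries for a gene, not between genes.

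The members' calls are read against the share of all genes called by the same rule. In ECs, 4.11% of genes were called higher and 3.24% lower (7.36% in either direction), and 1 of 5 members was called, lower. In VSMCs-1, 2.54% were called higher and 3.77% lower (6.3% together), and 1 of 4 members was called, lower. In VSMCs-2, 4.33% were called higher and 4.08% lower (8.41% together), and 1 of 6 members was called, lower. In Fib-1, 2.76% were called higher and 3.92% lower (6.68% together), and 0 of 3 members were called. In Fib-2, 5.19% were called higher and 3.69% lower (8.89% together), and 1 of 6 members was called, higher. In Fib-3, 3.53% were called higher and 4.39% lower (7.92% together), and 0 of 3 members were called. In Mac, 8.16% were called higher and 4.54% lower (12.7% together), and 1 of 4 members was called, higher. In all annotated cells 2 of 9 members were called higher, where 8.48% of 14529 genes were, and 2 lower, where 9.55% were (18% together). The median log2 ratio of the members compared was 0.14 in ECs, against -0.01 over all genes compared there. It was 0.12 against 0.01 in VSMCs-1 and -0.15 against 0.01 in VSMCs-2. Among fibroblasts it was -0.26 against -0.07 in Fib-1, 0.41 against 0.03 in Fib-2 and 0.02 against -0.05 in Fib-3. It was -0.33 against 0.08 in Mac and -0.23 against 0.02 in all annotated cells, so the sign of the members' median varied by class.

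Ace, the enzyme that makes angiotensin II and degrades bradykinin, lies on chromosome 11 (105967945 to 105989964, plus strand). In ECs it had 453 UMIs in 165 of 228 diabetic cells, or 531 CPM (483 to 582), and 467 UMIs in 232 of 366 control cells, or 427 CPM (389 to 468). The ratio in ECs was 1.24 (1.09 to 1.42), under the 1.5-fold size. Fib-2 cells had 245 CPM in the diabetic and 201 CPM in the control library, with a ratio of 1.22 (1.09 to 1.37). ECs exceeded Fib-2, the next class, by 2.17-fold (1.91 to 2.46) in the diabetic library and 2.13-fold (1.89 to 2.39) in the control library. Fib-1 had 211 CPM in diabetic and 194 CPM in control cells, and Fib-3 had 196 CPM in diabetic and 194 CPM in control cells, and neighbours in the order of the 3 fibroblast classes did not differ beyond counting error in either library. VSMCs-1 had 75.7 CPM in diabetic and 58.7 CPM in control cells, and VSMCs-2 had 53.3 CPM in diabetic and 44.9 CPM in control cells. Fib-2, with 533 diabetic and 907 control cells, held the largest part of the Ace UMIs, 34.6% in the diabetic and 45.2% in the control library, ahead of ECs with 30.3% in the diabetic and 28.9% in the control library.

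Ace was called higher in macrophages, its lowest class among the 7 compared. Mac had 28 UMIs in 17 of 229 diabetic cells (24.8 CPM) and 32 UMIs in 21 of 510 control cells (12.2 CPM), a ratio of 2.03 (1.18 to 3.47). No cell held over 14.3% of these UMIs. With cells thinned to 1000 UMIs the ratio was 2.50 (0.747 to 8.34) and the call was lost. In the same class, summed smooth muscle markers stood at 869 CPM in the diabetic and 301 CPM in the control library, fibroblast markers at 412 CPM in the diabetic and 490 CPM in the control library, and endothelial markers at 42.5 CPM in the diabetic and 67.3 CPM in the control library. All 7 smooth muscle markers and all 7 fibroblast markers were detected. Of the endothelial markers, Kdr, Tie1 and Cldn5 were at 0 in diabetic and Kdr in control Mac. Monocyte markers stood at 481 CPM in diabetic and 359 CPM in control Mac. Dendritic markers stood at 279 CPM in diabetic and 154 CPM in control Mac. The small monocyte class had Ace at 97.6 CPM (8 UMIs) in diabetic and 25.9 CPM (1 UMI) in control cells. The small MoDC class had 2 Ace UMIs in diabetic and 0 in control cells. The part of these transcripts and cell types in the Ace ratio was not tested. Of 10111 genes compared in Mac, 8.16% were called higher, so 1 of 4 members is read against that share. After thinning each cell to 1000 UMIs, 36.4% of diabetic ECs (30.0 to 43.1) and 33.8% of control ECs (28.8 to 39.1) had an Ace UMI. Without thinning the shares were 72.4% in diabetic and 63.4% in control ECs, at a median of 3504 UMIs in diabetic and 2867 in control ECs. Among T, B and NKT cells 0 of 133 diabetic and 0 of 70 control cells had an Ace UMI after thinning, which allows shares of up to 2.26% in diabetic and 4.29% in control cells. The median unthinned depth of these lymphoid cells was 2177 UMIs in the diabetic and 2353 in the control library.

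Within ECs, cells with an Ace UMI were compared with the others. They had more Sfrp1 (a secreted Wnt antagonist), at 3.75-fold (2.59 to 5.61) in diabetic and 2.57-fold (2.02 to 3.29) in control ECs. They had less of Cd36 and Fabp4, fatty acid handling genes typical of capillary endothelium. Cd36 was at 0.0438-fold in diabetic and 0.166-fold in control ECs, and Fabp4 at 0.0566-fold in diabetic and 0.299-fold in control ECs. Flt1, a receptor of vascular endothelial growth factor, was at 0.175-fold in diabetic and 0.420-fold in control ECs. The Ace-positive cells were also deeper, with medians of 3905 against 2414 UMIs in the diabetic and 3066.5 against 2553.5 in the control library. Within Fib-2, cells with an Ace UMI had more Cilp (a cartilage matrix protein), at 4.97-fold in diabetic and 2.25-fold in control cells, and more Mgp (matrix Gla protein, an inhibitor of calcification), at 1.54-fold in diabetic and 1.30-fold in control cells. These comparisons are of cells of the same library, with no replicate. Their genes were chosen after the values were seen, by the weaker of the 2 libraries, so the direction that both libraries share is set by the choice.

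Agt, the angiotensin precursor, lies on chromosome 8 (124556534 to 124569706, minus strand) and was close to absent. It had 2 UMIs in all diabetic annotated cells and 8 in all control cells. Both diabetic UMIs and 7 of the control UMIs were in Fib-2, and the remaining control UMI was in Fib-1. Over all annotated cells the level was 0.169 CPM in diabetic and 0.646 CPM in control cells, a ratio of 0.262 (0.0271 to 1.31), which counting error does not separate from 1. ECs, both smooth muscle classes, Fib-3 and Mac had 0 Agt UMIs in both libraries.

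Agtr1a, the type 1 angiotensin II receptor, lies on chromosome 13 (30336441 to 30382867, plus strand). It had 13 UMIs in 13 diabetic cells and 16 UMIs in 16 control cells, so every positive cell held a single UMI. VSMCs-2 held 6 UMIs in the diabetic and 6 in the control library, Fib-2 held 4 in the diabetic and 5 in the control library, and Fib-3 held 3 in the diabetic and 4 in the control library. The highest level was in Fib-3, at 7.55 CPM (1.56 to 22.1) in diabetic and 5.57 CPM (1.52 to 14.3) in control cells, which overlapped Fib-2 and VSMCs-2 in both libraries. ECs, VSMCs-1 and Mac had 0 in both libraries. The ratio in VSMCs-2 was 0.487 (0.130 to 1.82), and that in all annotated cells 0.851 (0.376 to 1.89). Its paralogue Agtr1b, a second type 1 receptor gene of rodents, had 40 UMIs in diabetic and 28 in control cells, 25 of them in diabetic VSMCs-2 and 15 in control VSMCs-2, and the rest mostly in Fib-2 with 15 in the diabetic and 12 in the control library. The coding parts of the paralogues are similar, and how the authors' counting treated reads that fit both is not given in the sources used here.

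Edn1 lies on chromosome 13 (42301476 to 42307990, plus strand), and ECs held 83.7% of its UMIs in the diabetic and 78.3% in the control library. ECs had 348 UMIs in 94 of 228 diabetic cells, or 408 CPM (366 to 453), and 403 UMIs in 111 of 366 control cells, or 369 CPM (334 to 407), a ratio of 1.11 (0.955 to 1.28). ECs exceeded the next class by 54.0-fold (18.3 to 263) in the diabetic library, where it was Fib-3, and by 9.95-fold (5.63 to 19.4) in the control library, where it was VSMCs-1. A few cells carried much of the transcript, since the top 10 ECs held 41.4% of its EC UMIs in the diabetic and 33.7% in the control library. The highest cell had 47 UMIs in the diabetic and 32 in the control library. After thinning, 22.3% of diabetic ECs (17.0 to 28.4) and 17.5% of control ECs (13.6 to 21.9) had an Edn1 UMI, against 0 of 133 diabetic and 0 of 70 control lymphoid cells.

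Edn1 was called lower in both smooth muscle classes of the diabetic library. VSMCs-2 had 41 UMIs in 31 of 856 diabetic cells (7.17 CPM) and 47 UMIs in 40 of 496 control cells (16.9 CPM), a ratio of 0.425 (0.272 to 0.660). VSMCs-1 had 3 UMIs in diabetic cells (6.88 CPM) and 12 UMIs in control cells (37.1 CPM), a ratio of 0.186 (0.0336 to 0.688), which thinning to 1000 UMIs left at 0.180 (0.00381 to 1.61) without a call. Of all genes compared, 4.08% were called lower in VSMCs-2 and 3.77% in VSMCs-1, and Edn1 was the member called lower in each, of 6 members compared in VSMCs-2 and 4 in VSMCs-1. Endothelial markers in VSMCs-2 stood at 55.1 CPM in the diabetic and 62.9 CPM in the control library, and all 7 were detected in diabetic cells and 6 in control cells, Kdr being at 0. Per 100 endothelial marker UMIs, VSMCs-2 held 13 Edn1 UMIs (9.34 to 17.7) in the diabetic and 26.9 (19.7 to 35.7) in the control library, and ECs held 6.15 (5.52 to 6.83) in the diabetic and 5.31 (4.80 to 5.85) in the control library. These intervals take the marker count, 315 UMIs in diabetic and 175 in control VSMCs-2, as fixed and are therefore too narrow. The part of endothelial transcripts in the Edn1 ratio was not tested. After thinning to 1000 UMIs the VSMCs-2 shares with an Edn1 UMI were 1.29% in diabetic and 1.21% in control cells, on 11 diabetic and 6 control cells, and the thinned ratio reversed to 1.16 (0.310 to 5.26). The shares without thinning were 3.62% in diabetic and 8.06% in control cells, although diabetic VSMCs-2 were the deeper (median 6523 UMIs, against 5547 in control VSMCs-2).

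Within ECs, cells with an Edn1 UMI were set against the other ECs. Tagln, an actin-binding protein of smooth muscle, was 5.36-fold higher (3.59 to 8.24) in diabetic and 5.25-fold higher (3.82 to 7.31) in control ECs. Thbs1 and Cyr61 encode secreted matricellular proteins. Thbs1 was 3.46-fold higher in diabetic and 5.68-fold higher in control ECs, and Cyr61 was 3.01-fold higher in diabetic and 4.13-fold higher in control ECs. Bmp4, a growth factor of the TGF-beta family, was 2.17-fold higher in diabetic and 2.12-fold higher in control ECs. Fos, a subunit of the AP-1 factor, was 2.0-fold higher (1.87 to 2.14) in diabetic and 2.08-fold higher (1.96 to 2.21) in control ECs. Tsc22d3, a glucocorticoid-induced gene, was at 0.465-fold in diabetic and 0.422-fold in control ECs. Summed smooth muscle markers were also higher in the Edn1-positive ECs, at 1176 against 382 CPM in the diabetic and 1116 against 327 CPM in the control library. Edn1-positive ECs were deeper, with medians of 3970 against 3040.5 UMIs in the diabetic and 3601 against 2578 in the control library. The part of depth and of smooth muscle transcripts in the profile was not tested. The genes were chosen after the values were seen.

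Ednra, the endothelin A receptor, lies on chromosome 8 (77663031 to 77724464, minus strand). VSMCs-1 had 18 UMIs in diabetic cells (41.3 CPM, 24.5 to 65.2) and 8 in control cells (24.7 CPM, 10.7 to 48.7). Fib-2 had 64 UMIs in diabetic cells (30.3 CPM) and 76 in control cells (20.9 CPM), a ratio of 1.45 (1.02 to 2.05) that stayed just under the 1.5-fold size. Fib-1 had 24.1 CPM in diabetic and 28.8 CPM in control cells. Neighbours in the order of VSMCs-1, Fib-1 and Fib-2 did not differ beyond counting error in either library. Fib-3 had 12.6 CPM on 5 UMIs in diabetic and 5.57 CPM on 4 UMIs in control cells. VSMCs-2, the larger smooth muscle class, had 4.20 CPM on 24 UMIs in diabetic and 5.75 CPM on 16 UMIs in control cells. ECs had 1 UMI in the diabetic and 0 in the control library, and Mac had 0 in both. Cells of Fib-2 with an Ednra UMI had more collagen transcripts, with Col3a1 at 1.45-fold (1.34 to 1.57) in diabetic and 1.53-fold (1.45 to 1.61) in control cells and Col1a1 at 1.23-fold in diabetic and 1.27-fold in control cells. Il6, an inflammatory cytokine, was at 0.534-fold in diabetic and 0.344-fold in control cells, and these genes were chosen in the same way.

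Ednrb, the endothelin B receptor, lies on chromosome 14 (103814625 to 103844402, minus strand), and Mac held 87.4% of its UMIs in the diabetic and 96.6% in the control library. Mac had 118 UMIs in 41 of 229 diabetic cells, or 104 CPM (86.5 to 125), and 368 UMIs in 139 of 510 control cells, or 141 CPM (127 to 156). The ratio was 0.743 (0.598 to 0.916), and the difference was smaller than the 1.5-fold size. The 7 macrophage markers summed to 10460 CPM in diabetic and 17612 CPM in control Mac, and their part in the Ednrb difference was not tested. Mac exceeded ECs, the next class, by 9.91-fold (5.05 to 22.2) in the diabetic and 25.6-fold (11.7 to 70.3) in the control library. ECs, the vascular class in which this receptor is best known, had 9 UMIs in 6 diabetic cells and 6 UMIs in 5 control cells, or 10.5 CPM (4.82 to 20.0) in diabetic and 5.49 CPM (2.01 to 11.9) in control cells. Both smooth muscle classes and Fib-3 had 0. After thinning, 11.1% of diabetic Mac (7.06 to 16.3) and 10.1% of control Mac (7.56 to 13.05) had an Ednrb UMI, against 0 of 133 diabetic and 2 of 70 control lymphoid cells. In all annotated cells Ednrb was at 11.4 CPM in the diabetic and 30.7 CPM in the control library, a ratio of 0.371 (0.303 to 0.453). With each class given its mean share over both libraries that ratio was 0.773.

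Macrophages with an Ednrb UMI were set against the other Mac in the same way, and the genes named were again chosen after the values were seen. Cd209f was 15.6-fold higher (11.2 to 22.2) in diabetic and 5.72-fold higher (4.69 to 7.01) in control cells. Cd209d was 14.5-fold higher in diabetic and 11.9-fold higher in control cells, and Cd209g 11.7-fold higher in diabetic and 5.86-fold higher in control cells. These genes encode C-type lectins of the DC-SIGN family. Fcna, a ficolin of resident macrophages, was 6.48-fold higher in diabetic and 4.59-fold higher in control cells. Clec10a, another lectin, was 4.23-fold higher in diabetic and 2.80-fold higher in control cells, and the chemokine Ccl8 was 6.65-fold higher in diabetic and 2.85-fold higher in control cells. Ccl4, an inflammatory chemokine, was at 0.238-fold in diabetic and 0.329-fold in control cells, and the tetraspanin Cd9 at 0.326-fold in diabetic and 0.343-fold in control cells. Ednrb-positive Mac were deeper, with medians of 5986 against 3720.5 UMIs in the diabetic and 5854 against 4051 in the control library. Fixed macrophage markers were at 13276 against 9553 CPM in diabetic and 18666 against 17092 CPM in control Mac. Smooth muscle markers were at 160 against 1098 CPM in diabetic and 148 against 377 CPM in control Mac. Fibroblast markers were at 479 against 390 CPM in diabetic and 186 against 640 CPM in control Mac. The part of depth and of these transcripts in the profile was not tested.

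**Figure D2:**
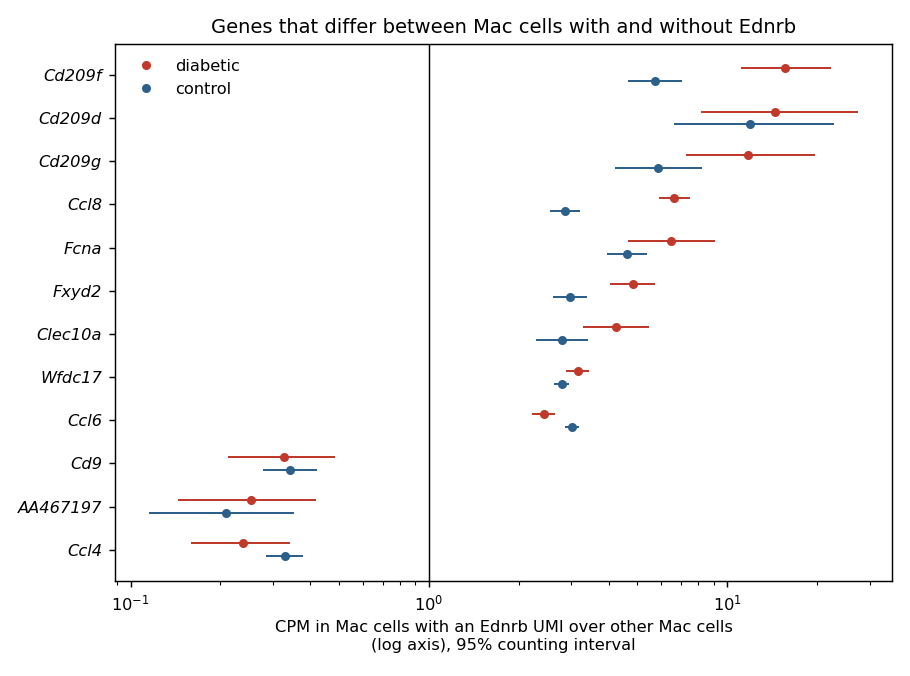
Fold of CPM in Mac cells with an Ednrb UMI over the other Mac cells (horizontal log axis) for the listed genes, with diabetic points in red above control points in blue. Bars are 95% counting intervals over the cells of 1 library, and genes with over 25% of their UMIs in a single cell of the class are not drawn. All 9 genes drawn right of 1 and all 3 left of 1 lie on the same side in both libraries, which their selection required.

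Ednrb UMIs were also found in barcodes that carry no class. Of 114 such diabetic barcodes with at least 3000 genes, 72 were led by macrophage markers and held 106 of the 110 Ednrb UMIs. Of 73 such control barcodes, 56 were led by macrophage markers and held 55 of the 56 Ednrb UMIs. The levels in these macrophage-led barcodes were 81.4 CPM in the diabetic and 58.5 CPM in the control library.

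Npr1 lies on chromosome 3 (90450591 to 90465866, minus strand). ECs had 114 UMIs in 89 diabetic cells, or 134 CPM (110 to 160), and 143 UMIs in 110 control cells, or 131 CPM (110 to 154). VSMCs-2 had 701 UMIs in 428 of 856 diabetic cells, or 123 CPM (114 to 132), and 305 UMIs in 214 of 496 control cells, or 110 CPM (97.6 to 123), a ratio of 1.12 (0.977 to 1.28). VSMCs-1 had 96.3 CPM in diabetic and 105 CPM in control cells. Neighbours in the order of these 3 classes did not differ beyond counting error in either library. The ratio of VSMCs-1 over Fib-3, the next class, was 1.20 (0.737 to 1.96) in the diabetic and 1.84 (1.13 to 2.97) in the control library. Fib-3 had 80.6 CPM in diabetic and 57.1 CPM in control cells and exceeded Fib-2, with 22.2 CPM in diabetic and 23.1 CPM in control cells, by 3.63-fold (2.24 to 5.80) in the diabetic and 2.47-fold (1.66 to 3.63) in the control library. Mac had 6.20 CPM in diabetic and 7.26 CPM in control cells.

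No class was called for Npr1, although all annotated cells together were. Those had 949 UMIs in the diabetic library (80.2 CPM) and 636 in the control library (51.3 CPM), a ratio of 1.56 (1.41 to 1.73). With each class weighted by its mean share the ratio was 1.08, and VSMCs-2 held 73.9% of the Npr1 UMIs in the diabetic and 48.0% in the control library. Thinned to 1000 UMIs, 11% of diabetic VSMCs-2 (8.97 to 13.3) and 8.67% of control VSMCs-2 (6.35 to 11.5) had an Npr1 UMI. Npr1-positive VSMCs-2 had more Sost (sclerostin, a Wnt inhibitor of bone and aorta), at 1.43-fold (1.34 to 1.52) in diabetic and 1.31-fold (1.17 to 1.47) in control cells. They had less Atf3, a stress-induced transcription factor, at 0.599-fold in diabetic and 0.538-fold in control cells, less Thbs1, at 0.286-fold in diabetic and 0.300-fold in control cells, and less Sncg (gamma-synuclein), at 0.376-fold in diabetic and 0.470-fold in control cells. These genes too were chosen after the values were seen.

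Npr3, the clearance receptor, lies on chromosome 15 (11839896 to 11907287, minus strand) and was rare. Fib-2 had 19 UMIs in 14 diabetic cells (8.98 CPM) and 14 UMIs in 14 control cells (3.85 CPM), a ratio of 2.33 (1.11 to 5.03), and it was called higher. Of all genes compared in Fib-2, 5.19% were called higher, and Npr3 was the member called among 6. Without the cell with most Npr3 UMIs in each library the ratio was 2.12 (0.955 to 4.78), after thinning to 1000 UMIs 3.40 (0.488 to 37.6), and the call was lost in both. VSMCs-2 had 28 UMIs in diabetic cells (4.90 CPM) and 9 in control cells (3.23 CPM), a ratio of 1.51 (0.695 to 3.65). In all annotated cells the level was 4.48 CPM in diabetic and 2.02 CPM in control cells, a ratio of 2.22 (1.36 to 3.73). Smooth muscle markers in Fib-2 stood at 1589 CPM in the diabetic and 1061 CPM in the control library, with all 7 detected, and their part in the ratio was not tested.

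Nppc lies on chromosome 1 (86666291 to 86670571, minus strand) and was called lower in diabetic ECs. A single UMI was found in 1 of 228 diabetic ECs (1.17 CPM, 0.0297 to 6.53), against 29 UMIs in 9 of 366 control ECs (26.5 CPM, 17.8 to 38.1), a ratio of 0.0441 (0.00108 to 0.266). The highest control cell held 8 UMIs, or 27.6% of them. Of all genes compared in ECs, 3.24% were called lower, and Nppc was the member called among 5. The number of positive cells is small, and thinned to 1000 UMIs, 5 of 343 control ECs kept a UMI (1.46%, 0.475 to 3.37) and 0 of 220 diabetic ECs did, which allows a share of up to 1.36%, and the call was lost. Summed lymphatic endothelial markers in ECs were at 829 CPM in the diabetic and 401 CPM in the control library, with all 5 detected. A single cell held 48.3% of these marker UMIs in the diabetic and 43.4% in the control library. The part of these markers in the Nppc difference was not tested. None of the 9 Nppc-positive control ECs had an Edn1 UMI, whereas 111 of 366 control ECs did. Of the same 9 cells, 6 had an Ace UMI, 4 an Npr1 UMI and 0 an Ednrb UMI. With 9 cells, whether Nppc and Edn1 avoid each other cannot be told. Fib-2 had 4 UMIs in diabetic and 15 in control cells, with 8 of the control UMIs in a single cell, with a ratio of 0.458 (0.111 to 1.44). In all annotated cells there were 13 UMIs in the diabetic and 47 in the control library, a ratio of 0.290 (0.144 to 0.544).

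**Figure D3:**
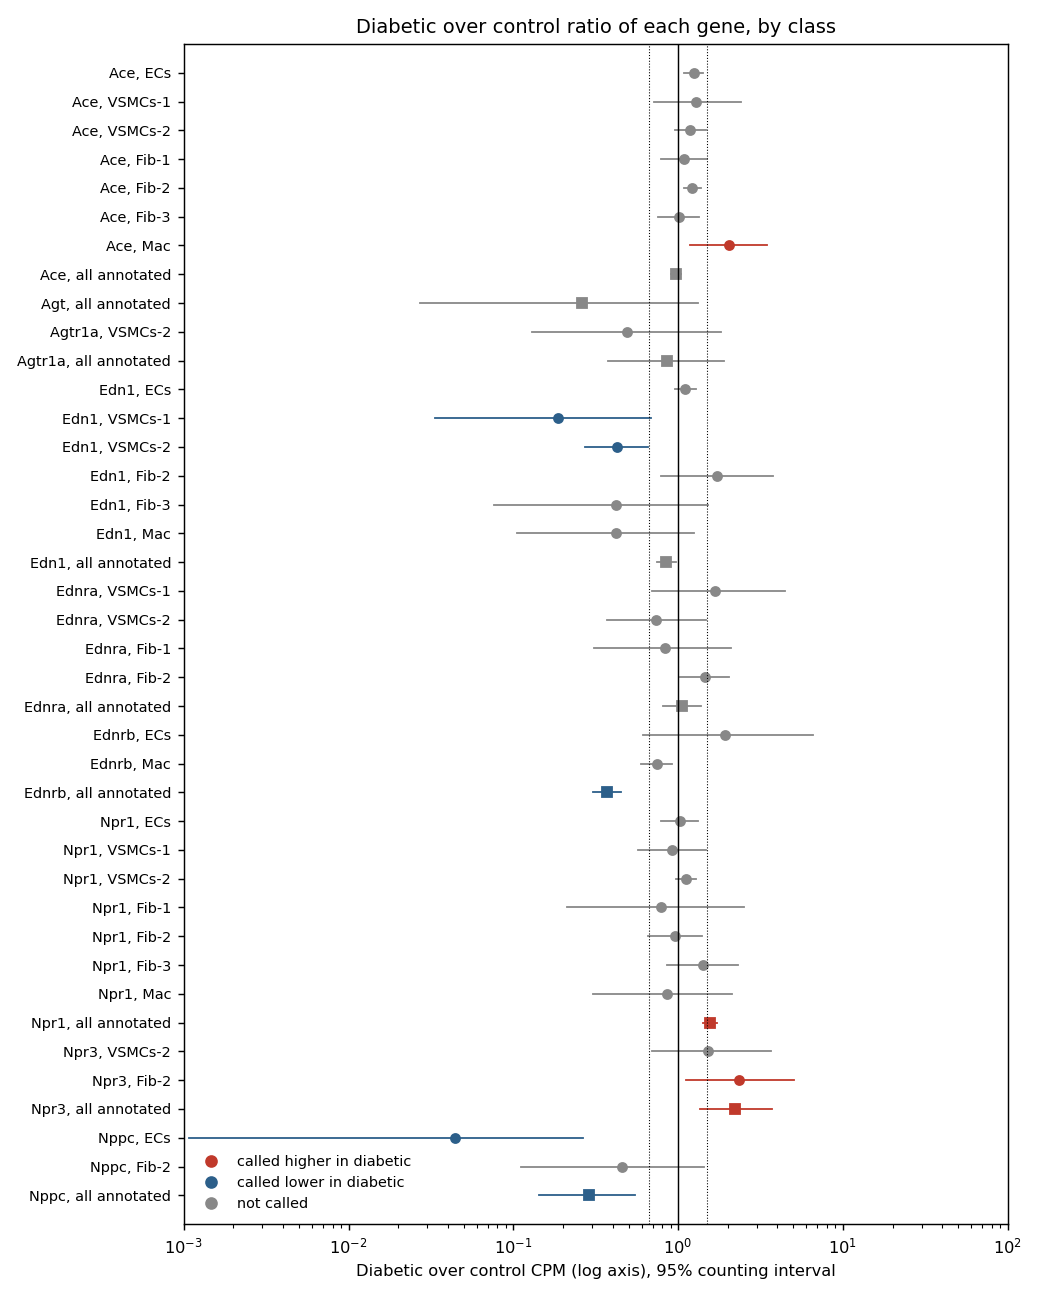
Ratio of diabetic over control CPM (horizontal log axis) of each gene in each class where it had at least 10 UMIs, and in all annotated cells (squares), with 95% counting intervals. Dotted lines mark 1.5-fold either way, and colour marks the calls. Nppc in ECs lies farthest from 1, at 0.0441, and Edn1 lies left of 1 in both smooth muscle classes, at 0.186 and 0.425.

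**Figure D4:**
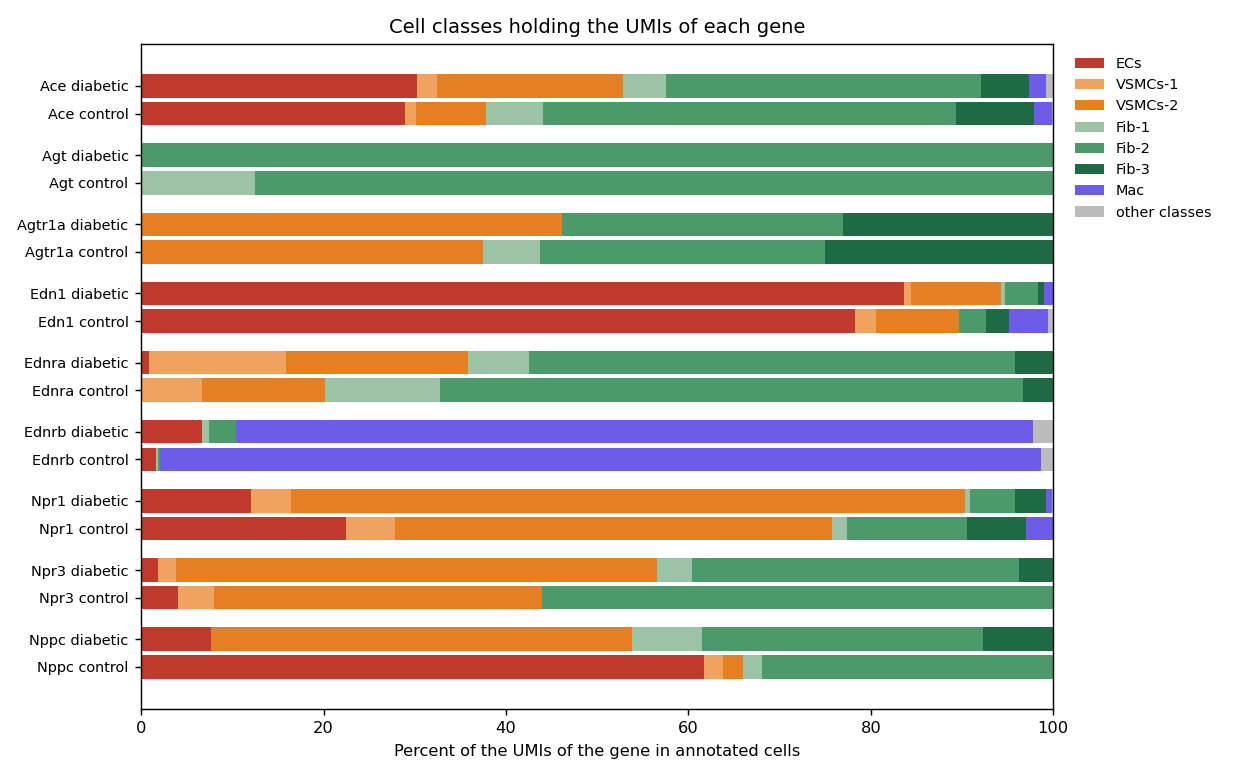
Percent of the annotated UMIs of each gene (horizontal axis, bars starting at 0) held by each class, with the diabetic bar above the control bar. The class that holds most Nppc UMIs differs between the libraries, with ECs holding 7.69% in the diabetic and 61.7% in the control library, on totals of 13 diabetic and 47 control UMIs.

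Edn1 and the endothelin-converting enzyme Ece1, which releases the active peptide, were both highest in ECs. Ece1 had 648 CPM in diabetic and 530 CPM in control ECs, with a ratio of 1.22 (1.09 to 1.38), and at most 74.7 CPM in the other diabetic and 72.5 CPM in the other control classes. Among diabetic ECs 47.9% of the Ace-positive cells had an Edn1 UMI, against 23.8% of the Ace-negative cells, and among control ECs 34.9% did, against 22.4%. Cells with both were deeper, with a median of 4023 UMIs in diabetic and 4050 in control ECs, against 2171 in diabetic and 2341.5 in control ECs with neither. Npr2, the receptor of C-type natriuretic peptide, had most of its UMIs in VSMCs-2 and Fib-2, with 152 UMIs in diabetic VSMCs-2 (26.6 CPM) and 60 in control VSMCs-2 (21.6 CPM), and with 64 in diabetic Fib-2 (30.3 CPM) and 95 in control Fib-2 (26.1 CPM). ECs had 11 Npr2 UMIs in the diabetic (12.9 CPM) and 23 in the control library (21.0 CPM).

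A list of 55 further gene symbols of these pathways covered 7 groups, and 49 of the symbols were in the deposited count matrices. In the 7 classes 197 gene and class pairs could be compared, 13 were called higher and 8 lower, and these fell on 15 genes. By the same rule, 6.3% (VSMCs-1) to 12.7% (Mac) of all genes were called in either direction, so these counts are read against that share. Renin (Ren1) was confined to the fibroblast classes, with 9 UMIs in diabetic and 2 in control Fib-3, 2 in diabetic and 19 in control Fib-2, and 0 in diabetic and 6 in control Fib-1. A single cell held 8 of the 9 UMIs in diabetic Fib-3 and 10 of the 19 in control Fib-2. The type 2 angiotensin receptor Agtr2 had 0 in diabetic and 3 in control cells. Nppa and Nppb, the cardiac ligands of Npr1, were not among the genes of the deposited count matrices. Corin and Furin, convertases of the natriuretic precursors, were not called in any class, and neither was Enpep, which trims angiotensin II.

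Among enzymes that cut or trim these peptides, Mme (neprilysin) was higher in Fib-2, with 27.4 CPM in diabetic and 16.2 CPM in control cells and a ratio of 1.69 (1.16 to 2.47), as was Nln (neurolysin), at 2.26 (1.12 to 4.62). Anpep (aminopeptidase N) was lower in Fib-2, at 0.662 (0.546 to 0.799). Cma1, a mast cell chymase that can also form angiotensin II, was higher in Mac at 3.28 (1.48 to 7.53), with 17 UMIs in 3 diabetic cells, 47.1% of them in a single cell, and 12 UMIs in 7 control cells. Atp6ap2, the prorenin receptor and a proton pump accessory subunit, was lower in Mac at 0.646 (0.545 to 0.761) and in Fib-1 at 0.650 (0.463 to 0.902). Agtrap, which binds the type 1 receptor, was lower in Mac at 0.628 (0.401 to 0.954). With totals that leave out mitochondrial, ribosomal protein and haemoglobin genes, these calls of Anpep, Atp6ap2 and Agtrap were lost.

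Downstream genes were called mainly for cyclic GMP and for Rgs5. Rgs5, a brake on G protein signalling and a pericyte and smooth muscle marker, was higher in VSMCs-2, with 1937 CPM in diabetic and 925 CPM in control cells and a ratio of 2.09 (2.01 to 2.19). It was also higher in Fib-2 at 3.31 (2.55 to 4.31), in Mac at 5.18 (2.85 to 9.78) and in ECs at 5.12 (1.38 to 28.3). The EC ratio rested on 12 diabetic and 3 control UMIs, and the Mac ratio on 38 diabetic and 17 control UMIs. A single cell held 36.8% of the diabetic and 35.3% of the control Mac UMIs. Smooth muscle markers were at 1.5-fold (Fib-2), 2.89-fold (Mac) and 1.20-fold (ECs) of the control level, and their part in these Rgs5 ratios was not tested. Pde5a, which breaks down cyclic GMP, was higher in Fib-2 at 1.74 (1.30 to 2.32) and in VSMCs-1 at 1.84 (1.18 to 2.94). The soluble guanylyl cyclase subunit Gucy1a1 was higher in Fib-2 at 1.76 (1.14 to 2.70), and Gucy1b1 was higher in Mac on 9 diabetic and 2 control UMIs. VSMCs-2 held most UMIs of both subunits, with 634 diabetic and 374 control UMIs of Gucy1a1 and 917 and 518 of Gucy1b1. Their ratios there were 0.825 (0.725 to 0.940) for Gucy1a1 and 0.862 (0.773 to 0.961) for Gucy1b1, below 1 but short of the 1.5-fold size. Prkg1, the cyclic GMP-dependent kinase, was lower in VSMCs-2, with 14.7 CPM in diabetic and 26.2 CPM in control cells and a ratio of 0.560 (0.404 to 0.777).

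The genes whose level across the 14 sums (7 classes in 2 libraries) was most like that of a member were found by Pearson's r of log2(CPM + 10) among 11097 genes with at least 30 UMIs in each library. The points share library and class depth, and r is given as a description. Edn1 was nearest to Pecam1, Rhpn2 and Megf6, each at 0.97. Ednrb was nearest to Nrros, Batf and P2ry10b, each at 0.99. Ace was nearest to Il6st and Cyp1b1 (0.96 each) and Phlda3 (0.95). Npr1 was nearest to Lims2 (0.97), Limch1 (0.96) and Cdh13 (0.95), and Ednra to Gm10600 (0.98), Nlgn3 (0.97) and Gm13305 (0.96). The rare members had weaker matches. Agt was nearest to Col8a2 and Fetub (0.90 each) and AI646519 (0.89), Agtr1a to Aig1 (0.94), 6030419C18Rik (0.93) and Rhou (0.92), Npr3 to Wdsub1 (0.88), Tlcd1 (0.87) and Phc3 (0.86), and Nppc to Rnf135 (0.84), 3222401L13Rik (0.82) and Mocs1 (0.80).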

How the data were processed

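Aortic cells were profiled with the 10x Genomics 3' v2 chemistry. The authors deposited raw UMI counts per gene and barcode and a table that gives annotated barcodes a class. Cell Ranger 3.1.0, Partek (no version) and the build mm10 are named, per the submitters' processing notes. The annotation release, barcode filter and doublet treatment are not given in the sources used here, and no doublet caller was run. Unclassified barcodes (934 diabetic, 1155 control) were left out of the comparisons. Every deposited column of sample values was used (0 left out).

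Counts were summed per class and library and scaled to CPM, with exact Poisson intervals, exact conditional binomial intervals for ratios and Clopper-Pearson intervals for shares. With 1 library per group no test was run. A limit for a count of 0 used 3 counts. For shares, cells were randomly thinned to 1000 UMIs (seed 1) and shallower ones dropped. The intervals were checked on counts simulated from the Poisson model that they assume. That check therefore covers neither the spread between cells nor that between mice. Python 3.11.15, scipy 1.17.1 and edgeR 4.0.16 (trimmed mean scaling) were used. Start regions came from RefSeq and gene positions from the GENCODE annotation on GRCm38.

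The members and lists were chosen with earlier results of these data known. All members were named, with at most 12 called pathway genes ordered by the interval bound nearest to 1, those that convert, bind or degrade the same peptides, and the 3 most similar genes per member. Genes that set cells with a UMI apart were ranked, 10 each way, by the interval bound nearest to 1 in both libraries among genes with at least 30 UMIs in each, leaving out those with over 25% of UMIs in a single cell. Alternatives were other scalings, equal cell weight, thinning, removal of single, deep or mixed cells, merged classes, a 2-fold size rule and another count minimum.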

Additional observations from a re-analysis of the deposited data

Results flagged for a closer look

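Renin (Ren1) was called in opposite directions in 2 fibroblast classes. Its ratio of diabetic over control CPM was 8.13 (1.68 to 77.3) in Fib-3, on 9 diabetic and 2 control UMIs, and 0.181 (0.0204 to 0.750) in Fib-2, on 2 diabetic and 19 control UMIs. The difference between the classes was not tested. A single cell held 88.9% of the diabetic Fib-3 UMIs, and another 52.6% of the control Fib-2 UMIs.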

How the results depend on the processing

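No paired analysis was possible because each group is 1 library. The calls rest on few UMIs and on pools of 4 mice, and counting intervals leave out differences between mice. Thinned to 1000 UMIs, 4 class calls were lost, with ratios of 2.50 for Ace in Mac, 0.180 for Edn1 in VSMCs-1, 3.40 for Npr3 in Fib-2 and 0.780 for Nppc in ECs, where the diabetic count became 0 and was set to the floor of 3 UMIs, and Edn1 in VSMCs-2 reversed to 1.16. Thinning leaves far fewer UMIs by construction. Npr3 in Fib-2 was also lost without its top cell in each library (2.12) and without the 5% of cells with most UMIs (2.16), where 1 member in place of 2 was called higher over the classes. Npr1 in all annotated cells lost its call without those cells (1.49), under the 2-fold size rule (1.56) and with class shares held equal (1.08), as did Ednrb with class shares held equal (0.773). Over the pathway list, calls higher numbered 8 under the 2-fold rule, against 13, and calls lower 2 under that rule and 2 with totals that leave out mitochondrial, ribosomal protein and haemoglobin genes, against 8. The cause was not tested. In all, 78 of 89 alternative ratios of the called pairs kept their call. The 2 alternatives added after the data were seen left out cells with over 10% haemoglobin UMIs or added unclassified barcodes of at least 3000 genes, and neither ended a call of a member. Trimmed mean scaling moved log2 ratios by -0.08 to 0.08, and leaving out mitochondrial, ribosomal protein and haemoglobin genes by 0.06 to 0.11. Weighting every cell equally, which has no interval, put 7 further ratios past the size, among them Ednrb in Mac at 0.631.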
